A study of Emberiza melanocephala with 4 samples.

Results

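Emberiza melanocephala, the black-headed bunting, is a migratory songbird whose hypothalamus was compared here between a long-day (LD) and a short-day (SD) state, with 1 pyrosequencing library of total RNA on each side. The birds were caught in the wild, and the labels state neither their number nor their sex and age. The 4 libraries of the series also include 1 of LD liver and 1 of SD liver, which serve here to check the tissue labels. Groups follow the library titles. The seasonal state recorded for the library titled LD hypothalamus reads short day, and that for the library titled SD liver reads long day. Whether the hypothalamus pair differs in day length at all thus rests on the titles. The file headers call both tissues brain. Members are the genes that carry a symbol in the transcript file of either hypothalamus library. They number 150, of 278 genes with a symbol in the whole series. The library labelled SD hypothalamus listed 34 of them and that labelled LD hypothalamus 126. Only 10 stood in both files, 24 stood in the SD file alone and 116 in the LD file alone.

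The hypothalamus reads day length through photoreceptors and local thyroid hormone, and it drives the gonads and feeding through neuropeptides. Its tissue is made of neurons, which signal through synaptic vesicles, ion channels and receptors, together with glia and blood vessels. Liver, by contrast, secretes lipoproteins and other blood proteins and builds purines, sterols and glucose.

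Each side is 1 library, so there is no replicate check, no p-value or error is given, and all folds are descriptions. Levels are in FPKM, a level scaled by transcript length and by the total mapped in a library, summed over the transcripts of a gene. The length used is that of the listed transcript, so a level depends on how much of that transcript the reads cover. Beside them stand aligned bases, the mean coverage times the exon length, which show how much sequence lies behind a value. The 2 hypothalamus libraries held 15.8 (SD) and 13.3 (LD) aligned megabases, derived from the ratio of FPKM to coverage. Genes with a symbol took only 43.8 kilobases of the SD library and 189 kilobases of the LD library, or 0.277% and 1.42% of the aligned sequence. The 10 highest transcripts, none with a symbol, held 44.9% and 36.1%. A gene that has no line in a file is unlisted, which is not a level of 0.

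Marker genes of brain stood in the LD library, and the library labelled SD hypothalamus listed none of the neuronal ones. Of 53 neuron markers, 8 had a transcript in LD hypothalamus and 0 in SD hypothalamus. The same list gave 8 in the library labelled LD liver and 0 in that labelled SD liver. Of the 8 in LD hypothalamus, PVALB rests on an assembled transcript of 488 bases and also stands on the list of 13 muscle genes. Genes with a symbol numbered 126 in LD hypothalamus, 34 in SD hypothalamus, 183 in LD liver and 62 in SD liver. A short list can hold no marker for its size alone. Of 23 neuronal ion channels the counts were 5 in LD hypothalamus and 0 in SD hypothalamus. Of 51 hepatocyte genes, SD hypothalamus listed 2 (APOA1 and ONECUT1) and LD hypothalamus 0, while SD liver had 5 and LD liver 1. Over all 25 lists, 23 of 613 genes had a transcript in SD hypothalamus and 55 in LD hypothalamus. The 2 of 51 in SD hypothalamus thus lie near its share over all lists. APOA1 also stands on the list of 20 astrocyte and radial glia genes, where it is the 1 gene with a transcript in SD hypothalamus. The SD library thus listed none of the neuronal defining markers of the tissue it is named for. Albumin (ALB) and transthyretin (TTR), defining markers of liver, were unlisted in it too. Unlisted markers may still have been present in it. The marker lists were chosen with earlier results of these data known. The neuron list includes CKB, YWHAH and OLFM1, which are among the highest genes of LD hypothalamus (375, 226 and 201 FPKM). The counts are thus descriptions and no independent check of the tissue labels. All differences below are between the libraries as labelled, and season and tissue cannot be told apart in them. In a bulk sample, fewer cells of a type and less RNA per cell cannot be told apart either.

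**Figure D1:**
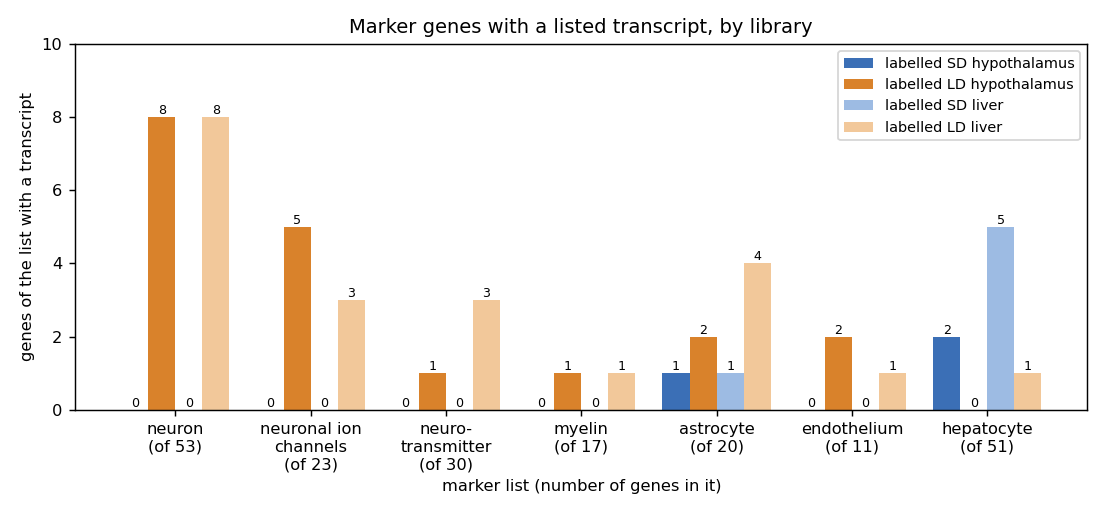
Number of genes of each marker list (y axis) that had a transcript in each of the 4 libraries, with the size of each list under its name; assembled transcripts that overlap a gene are counted. The 8 neuron markers of the libraries labelled LD stand against 0 in both libraries labelled SD, which list fewer genes.

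A further property of the files bears on every comparison. In each of the 34 transcripts with a symbol in SD hypothalamus, and in each of the 131 in LD hypothalamus, every exon had coverage above 0, in all 123 and all 406 exons. Genes of 1 exon made up 15 of the 34 listed in SD and 60 of the 126 listed in LD, or 44.1% and 47.6%. Coverage was thin, with a median of 0.204 in SD and 0.356 in LD. No exon had a mean coverage above 1 in 23 of the 34 SD genes and in 87 of the 126 LD genes. Aligned sequence was concentrated, and 3 genes held over 50% of the named bases in SD against 13 in LD. The largest share in SD was that of EIF4A2, at 26.2%, followed by APOA1 at 18.6%, and the largest in LD was that of SNAP25 at 7.60%. Fewer than 150 aligned bases lay behind 3 SD genes and 20 LD genes.

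**Figure D2:**
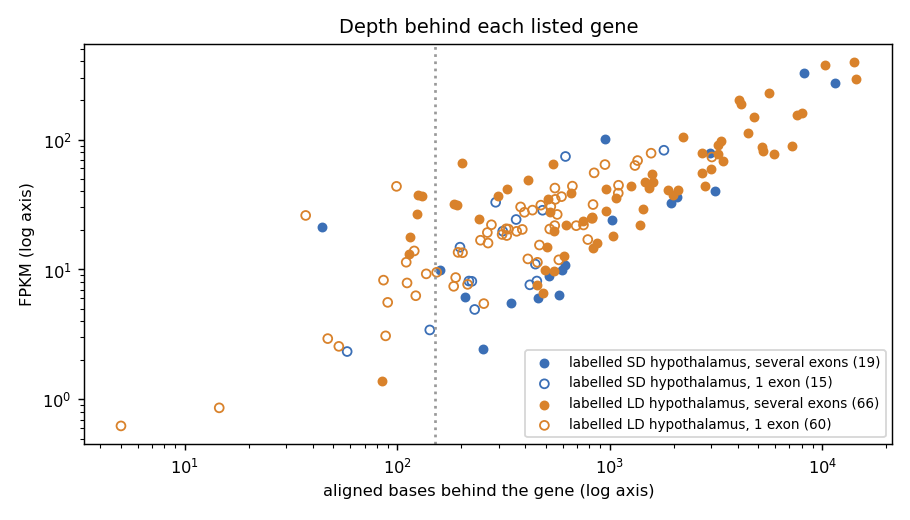
FPKM (y axis, log) against the aligned bases behind each gene (x axis, log) for the 34 genes of the library labelled SD hypothalamus and the 126 of that labelled LD hypothalamus; filled points have several exons, open points 1 exon, and the dotted line marks 150 bases. Left of the line stand 3 SD genes and 20 LD genes.

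Among the 10 genes listed in both libraries, 5 were at least 2-fold higher in LD and none was 2-fold lower. They are calmodulin, a 14-3-3 adaptor, an actin-depolymerising factor, a dynein light chain and a nuclear receptor co-repressor. The 5 are 50% of the 10 genes with a symbol listed in both, and the lower calls are 0%. Over all 22 reference genes listed in both, with or without a symbol, 27.3% reached 2-fold in favour of LD and 4.55% in favour of SD. Log2 ratios were formed on FPKM plus 1, which understates the change of low genes, and the median of the 10 was 0.96. Over all 22 reference genes the median was -0.0029, and over the 12 without a symbol it was -0.34, with 9 of the 12 below 0. Of those 12, 8 are under 100 bases long. All 10 were measured on the same reference transcript in both libraries, so transcript length does not enter their ratios.

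**Figure D3:**
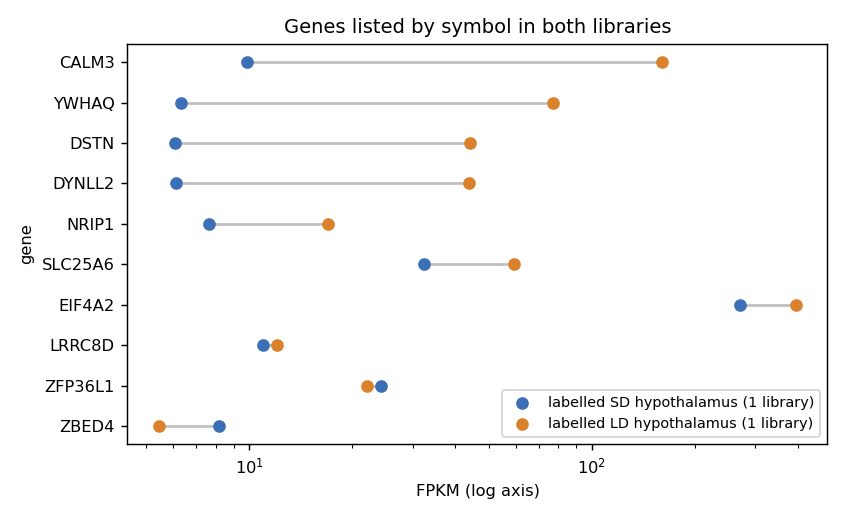
FPKM (x axis, log) of the 10 genes listed by symbol in both libraries, 1 point per library, ordered by the log2 ratio of LD to SD. CALM3, YWHAQ, DSTN and DYNLL2 stand between 6.08 and 9.88 FPKM in SD and between 43.9 and 160 FPKM in LD.

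CALM3, which encodes the calcium sensor calmodulin, had 9.88 FPKM in SD hypothalamus and 160 FPKM in LD hypothalamus. It lies on the minus strand of scaffold JH603202.1 (4501811 to 4509260) of the flycatcher build FicAlb_1.4. The log2 ratio was 3.89, a plain ratio of 16.2, from 592 and 8052 aligned bases. Calmodulin genes are near-identical in their coding parts, so reads may be shared among copies.

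YWHAQ, a 14-3-3 adaptor that binds phosphorylated proteins, had 6.32 FPKM in SD and 77.1 FPKM in LD (JH603252.1, 1483975 to 1509182). Its log2 ratio was 3.42, with 579 and 5933 aligned bases. DSTN, destrin, which takes actin filaments apart, had 6.08 and 44.2 FPKM (JH603394.1, 159774 to 165879), at a log2 ratio of 2.67. It had 460 aligned bases in SD and 2809 in LD. DYNLL2, a light chain of the motor dynein, had 6.12 and 43.9 FPKM (JH603226.1, 1290283 to 1297195), at 2.66, from 209 and 1261 aligned bases. In these 4 genes LD stood 7.19 to 16.2 times above SD in plain FPKM. The library labelled LD liver listed all 4 too, with CALM3 at 136, YWHAQ at 89.8, DSTN at 22.1 and DYNLL2 at 12.6 FPKM. That labelled SD liver listed none of the 4. No exon of these 4 genes had a mean coverage above 1 in SD, so each SD value and fold rests on little sequence. NRIP1, a co-repressor of nuclear receptors, reached 2-fold by a narrow margin (7.62 and 17.0 FPKM, log2 ratio 1.06). It was under 2-fold in 3 alternatives, among them a pseudocount of 10 FPKM (0.62).

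The other 5 genes stayed within 2-fold. SLC25A6, the ADP/ATP carrier of the mitochondrial inner membrane, had 32.5 FPKM in SD and 59.5 FPKM in LD, a log2 ratio of 0.85. EIF4A2, the RNA helicase of translation initiation, was the highest gene with a symbol in LD and the second highest in SD, at 394 and 271 FPKM, with a log2 ratio of 0.54. LRRC8D, part of the channel that releases anions from swollen cells, was at 0.12 (SD 10.99 and LD 12.1 FPKM). ZFP36L1, which targets mRNAs for decay, was at -0.13 (24.2 and 22.1 FPKM), and ZBED4, a zinc-finger protein, at -0.50 (8.15 and 5.46 FPKM). Directions within 2-fold move with the scale. When the median of the 10 was set to 0, a shift of 0.96, the split became 4 higher and 2 lower, with ZBED4 at -1.46 and ZFP36L1 at -1.09. SLC25A6, EIF4A2 and LRRC8D then turned negative, at -0.10, -0.42 and -0.83. With the 10 highest transcripts of each library left out of the total, 4 genes were higher and 0 lower.

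The files also give coverage exon by exon, and in the genes highest in LD the ratios were uneven along the length. The SD side of these ratios is thin, with no exon above a coverage of 1 in CALM3, YWHAQ, DSTN and DYNLL2. In CALM3, exon 1 had a coverage of 0.549 in SD and 0.681 in LD, exon 2 had 1 and 1.33, and exon 3 had 1 and 1.91. Exon 4, the last and longest with 3404 of 3791 bases, had 0.0793 in SD and 2.22 in LD. Per aligned megabase the LD to SD ratio was 33.3 in that last exon and 1.85 in the 3 exons before it combined. The last exon held 45.6% of the aligned bases of CALM3 in SD and 93.8% in LD.

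YWHAQ behaved alike in its last exon, with a ratio of 31.6, but its 4 upstream exons also differed 5.43-fold. Exons 2, 3 and 4 of YWHAQ stood at a mean coverage of 1 each in SD and at 3.84, 3.76 and 4.14 in LD. In DSTN the ratios were 9.76 in the last exon and 3.91 upstream, and in DYNLL2 they were 12.7 and 2.44. In SLC25A6 and EIF4A2 the last exon showed no such excess. For SLC25A6 the ratio was 1.55 in the last exon and 2.15 upstream, and for EIF4A2 it was 1.33 and 1.48. Within EIF4A2, exons 1 to 7 had ratios between 0.811 and 1.43, while exons 8, 9 and 10 had 1.97, 2.87 and 3.31. Every exon of a listed transcript was covered in these files. A gene listed from little sequence thus has covered short exons and can have a sparse long last exon, whatever its level. The exon ratios of CALM3, YWHAQ, DSTN and DYNLL2 cannot be told apart from this, and its part in them was not tested.

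**Figure D4:**
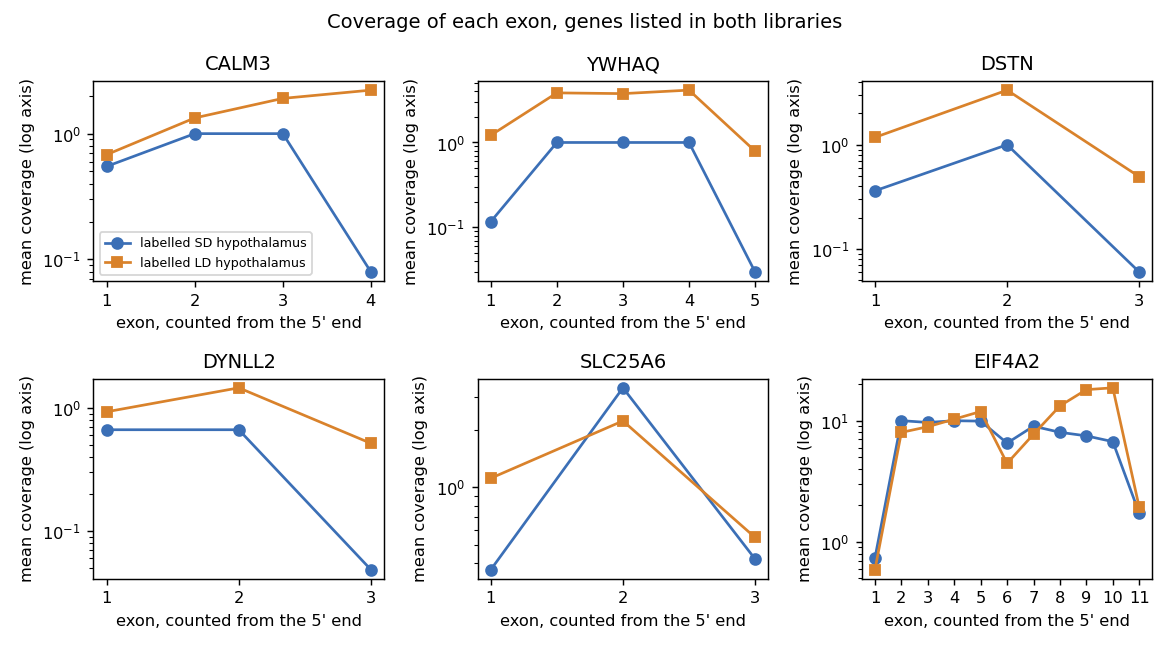
Mean coverage of each exon (y axis, log) from the 5′ to the 3′ end (x axis) for the 6 genes with several exons that were listed in both libraries, with circles for SD hypothalamus and squares for LD hypothalamus. In CALM3 the libraries lie close in exons 1 to 3 and apart in exon 4 (0.0793 against 2.22).

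For 3 more genes the symbol stood in 1 library while an assembled transcript without a symbol overlapped the same exons in the other. EIF4G2, a translation factor related to the EIF4G scaffold, had 36.2 FPKM in SD on its reference transcript of 3636 bases. In LD an assembled transcript of 2951 bases at the gene had 270 FPKM, which gives a log2 ratio of 2.87, or 2.59 on aligned bases per aligned megabase. GAPDH, the glycolytic enzyme, had 426 FPKM in SD on 1153 assembled bases and 89.8 FPKM in LD on 6021 reference bases. Its log2 ratio was -2.23 in FPKM and 0.14 on aligned bases, with 7753 and 7172 bases in all. ACTB, cytoskeletal actin, turned from -0.55 to 0.55 between these scales, so no direction is given for ACTB or GAPDH. Actin genes share sequence as well, and ACTB is uncertain for that reason.

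The 116 genes listed in LD hypothalamus and not in SD hypothalamus reached up to 375 FPKM, with a median of 27.9 FPKM. They were sorted by function after their symbols and values had been seen. Of these, 2 are ACTB and GAPDH, and for the other 114 the SD file held no transcript at their exons. At the same FPKM, 5 of the 116 would have reached in SD a mean coverage, summed over their transcripts, above a floor. The floor is the lowest coverage at which any assembled transcript was listed there (2.51, equal to 159 FPKM). The 5 genes are CKB, SNAP25, YWHAH, OLFM1 and OAZ1. CKB and OLFM1 have 2 transcripts each, so their sums are not the coverage of 1 transcript. The remaining 111 lie below that level, where an unlisted gene may still have been present in the SD library.

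CKB, the brain-type creatine kinase that buffers ATP, was the highest, with 375 FPKM over 2 transcripts and 10341 aligned bases (JH603184.1, 6631498 to 6642757). At an equal level the SD library would have held 12312 aligned bases of CKB. SNAP25, the plasma-membrane protein that drives fusion of synaptic vesicles, had 290 FPKM and 14353 aligned bases (JH603274.1, 2338212 to 2404309), and would have held 17089 bases in SD. SNAP25 also had 462 FPKM in the library labelled LD liver, above its level in LD hypothalamus. All 8 exons of SNAP25 were covered, from 0.747 in exon 1 to 12.0 in exon 7. Exon 1 of CKB in its main transcript held only 2 aligned bases.

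The other synaptic and axonal genes were lower. STMN3, a tubulin-binding protein of neurons, had 40.6 FPKM, and GAP43, found in growth cones, 38.8 FPKM. NKAIN2, a membrane partner of the sodium pump, had 16.1 FPKM, and BASP1, a membrane protein of axon terminals, 11.4 FPKM. ARC, an early gene of neuronal activity, had 5.58 FPKM, from 90 aligned bases. Together the 6 genes of this group held 9.50% of the named aligned bases of LD hypothalamus. The secreted and peptide-processing group was led by OLFM1, a glycoprotein of neurons (201 FPKM), and CPE, which trims the ends of neuropeptides and peptide hormones (87.3 FPKM). FIBIN and NENF, both secreted proteins, had 41.8 and 31.9 FPKM.

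Adhesion proteins that organise synapses and axons formed a compact set of 10 genes, all on transcripts of 1 exon. PCDH9, a protocadherin, had 73.4 FPKM. LRRTM1, which induces presynaptic contacts, had 63.1 FPKM, and LINGO1, a co-receptor that limits axon growth and myelination, 44.5 FPKM. The SLITRK proteins, postsynaptic partners of receptor phosphatases, were present with SLITRK1 (38.7 FPKM), SLITRK4 (24.7 FPKM) and SLITRK2 (22.0 FPKM). FLRT2, a guidance and adhesion protein, had 31.6 FPKM, ELFN2 21.7 FPKM and LRRC4C, a netrin-G ligand, 20.5 FPKM. LRRN1 had 3.08 FPKM from 88 aligned bases and is not secure. All 10 also had a transcript in the library labelled LD liver, and 0 in that labelled SD liver. Over all 116 genes listed in LD hypothalamus alone, the shares were 57.8% in LD liver and 8.62% in SD liver.

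Potassium channels counted 6, of which 5 had 1 exon. KCNA2 and KCNA1, voltage-gated channels of axons that set excitability, had 78.5 and 68.9 FPKM. The inward rectifiers KCNJ11, a subunit of ATP-sensitive channels, and KCNJ6, a target of G proteins, had 20.6 and 9.68 FPKM. KCNS2 and KCNF1, modulatory subunits that do not form channels alone, had 20.3 and 6.28 FPKM. KCNJ11 was the only gene of this group that the library labelled SD liver listed too (6.63 FPKM). The library labelled LD liver had a transcript of 3 of the 6, near its share of 57.8% over all 116 genes.

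G-protein-coupled receptors were 10, all on 1 exon, and 7 of them also had a transcript in the library labelled LD liver. Over all 116 genes listed in LD hypothalamus alone that share was 57.8%. SSTR1, a receptor for the neuropeptide somatostatin, was highest at 43.8 FPKM, while SSTR3 had 2.94 FPKM from 47 aligned bases. The serotonin receptors HTR1F and HTR1B had 16.8 and 13.5 FPKM and the adrenergic receptor ADRA2C 18.3 FPKM. S1PR1, the sphingosine-1-phosphate receptor of endothelium and glia, had 31.3 FPKM, and GPER1, a membrane oestrogen receptor, 13.5 FPKM. The orphan receptors GPR22, GPR63 and GPR85 had 30.5, 18.6 and 9.25 FPKM. PAQR8, a membrane progestin receptor, and MMD of the same family had 7.88 and 29.1 FPKM. SSTR1 was the only gene found from a chosen list of 28 hypothalamic neuropeptides and receptors, a list that leaves out SSTR3.

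Glia and vessels were represented by 5 genes. GPM6B, a membrane protein of myelinating glia and neurons, had 91.2 FPKM, GJA1, the gap-junction protein of astrocytes, 55.4 FPKM, and the matrix glycoprotein SPARC 41.5 FPKM. OMG, a myelin-associated inhibitor of axon growth, had 20.5 FPKM, and CLDN5, the tight-junction protein of brain endothelium, 13.9 FPKM from 120 aligned bases. Of these 5, the library labelled LD liver had a transcript of 4, against 57.8% over all 116 genes listed in LD hypothalamus alone. Classical myelin, astrocyte and neuron markers such as MBP, GFAP and TUBB3 were unlisted, so the brain character of the LD library rests on the genes named here.

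Signalling adaptors took the largest share of named sequence in LD. YWHAH, YWHAZ, YWHAB and YWHAE, 14-3-3 proteins abundant in brain, had 226, 98.1, 79.2 and 77.0 FPKM. In the library labelled LD liver, YWHAH, YWHAZ and YWHAE had 215, 85.2 and 93.6 FPKM, and YWHAB was unlisted. With CALM3 and YWHAQ, the 6 genes of this group held 15.3% of the named aligned bases of LD and 2.67% of those of SD. The 14-3-3 genes resemble each other, and how reads were divided among them is not known. GNB1, a beta subunit of G proteins, had 150 FPKM, and the small GTPases RAB11A (recycling endosomes), RAB1A (transport from the endoplasmic reticulum), RAP2C and RAP2A had 64.4, 42.3, 37.6 and 14.5 FPKM. The phosphatases PTP4A1 and PPP1CB had 112 and 55.3 FPKM, and PKIA, the inhibitor of protein kinase A, 65.5 FPKM from 201 aligned bases. Among cytoskeletal genes, TUBA1C, an alpha tubulin, had 105 FPKM, PFN2, a neuronal profilin, 37.0 FPKM, CNN3, a calponin, 19.6 FPKM, and CFL2, a cofilin, 18.2 FPKM.

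Polyamine genes stood in LD as a pair of opposite role. OAZ1, the antizyme that holds down polyamine synthesis, had 187 FPKM, and AMD1, the decarboxylase that feeds spermidine synthesis, had 40.8 FPKM. In the ubiquitin pathway 11 genes were listed, from 7.42 to 54.4 FPKM. They included the conjugating enzymes UBE2D3 (54.4 FPKM) and UBE2QL1 (49.2 FPKM), the ubiquitin-like proteins UBL3 (46.8 FPKM) and UFM1 (37.2 FPKM), and the ligase subunits TRIM13 (36.4 FPKM) and FBXL14 (34.6 FPKM). Sugar-modifying enzymes numbered 5, led by B3GALT1 (42.3 FPKM) and B3GNT5 (28.6 FPKM). B3GALT2 (0.86 FPKM) has only 14.5 bases behind it. COX1, encoded by the mitochondrion, had 2.56 FPKM from 53.0 bases.

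Transcription and chromatin genes listed in LD alone were 13. ZBTB18, a zinc-finger repressor that acts in neuronal development, led with 82.3 FPKM and 5275 aligned bases. NEUROD1, which drives neuronal differentiation, had 27.6 FPKM, SOX11, a factor of immature neurons, 9.51 FPKM, and TSHZ3 11.4 FPKM. BHLHE40, a light-responsive repressor of clock genes, had 35.0 FPKM, and ATF4, the factor of the integrated stress response, 14.9 FPKM. PNRC1, a nuclear receptor co-regulator, had 35.6 FPKM, SERTAD2 30.3 FPKM, the histone variant H3F3A 28.0 FPKM and AKIRIN2 22.1 FPKM. In RNA handling, the helicase DDX5 had 68.4 FPKM over 13 exons, BTF3L4, related to a chaperone subunit of nascent chains, 46.8 FPKM, and the ribosomal protein RPS3 27.8 FPKM.

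At 4 further genes an assembled transcript of LD hypothalamus overlapped exons of a gene whose symbol stands in a file labelled liver. ATP6V1C1, a subunit of the proton pump of vesicles, had 224 FPKM there, the ubiquitin-conjugating enzyme UBE2K 220 FPKM, CNBP, which binds nucleic acids, 220 FPKM and PVALB, the calcium buffer parvalbumin, 205 FPKM. Each rests on an assembled stretch of 438 to 727 bases. None of the 4 had a transcript in SD hypothalamus.

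The 24 genes listed in SD hypothalamus and not by symbol in LD hypothalamus ranged from 2.34 to 327 FPKM, with a median of 20.4 FPKM. For 23 of them, all but EIF4G2, the LD file held no transcript at their exons. None of them fell in the adhesion (10 genes), synaptic (6) or potassium channel (6) groups, which were formed after the values were seen. The same held for other groups, such as sugar-modifying enzymes (5 genes), phosphatases and kinase regulators (4) and other or unclear roles (7). With 24 genes against 116 listed in LD alone, small groups can lack an SD gene for their size.

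**Figure D5:**
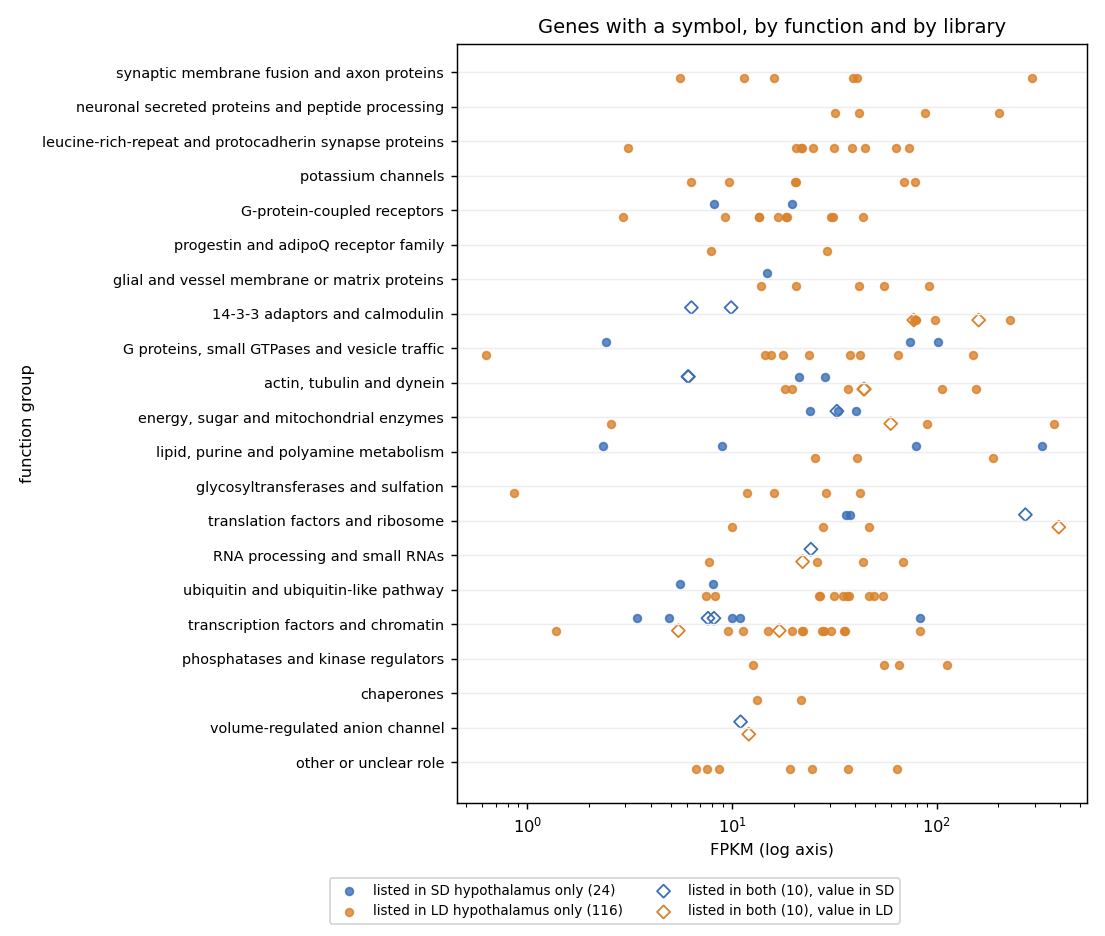
FPKM (x axis, log) of all 150 genes by function group (y axis), with filled points for genes listed in 1 of the libraries and open diamonds for the 10 listed in both, drawn once per library. The synaptic, adhesion and potassium channel groups hold LD points alone, as do others such as the glycosyltransferase and phosphatase groups. The point farthest right among SD genes without an LD value is APOA1 at 327 FPKM.

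APOA1, which builds high-density lipoprotein and in birds is made in liver and in other tissues, was the highest at 327 FPKM (JH603405.1, 184244 to 186123). It is the 1 gene of the 24 that, at the same FPKM, would have passed in LD the lowest coverage of an assembled transcript (2.50, or 189 FPKM), with 6848 aligned bases. Of its 8154 aligned bases, 95.7% lay in the last of 3 exons, and exon 1 held 0.500 of a base. APOA1 had a transcript in both libraries labelled liver as well, at 655 FPKM (SD, assembled) and 20.9 FPKM (LD).

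Genes of secretion and metabolism followed. SAR1B, the GTPase that buds vesicles from the endoplasmic reticulum and is needed for lipoprotein export, had 101 FPKM across 6 covered exons. PAICS, an enzyme of purine synthesis, had 78.8 FPKM and 2966 aligned bases over 8 exons. MDH1, the cytosolic malate dehydrogenase, had 40.1 FPKM and TPI1, of glycolysis, 24.1 FPKM. SC5D, a desaturase of cholesterol synthesis, had 8.88 FPKM, and DOLK, which makes the lipid carrier of glycosylation, 2.34 FPKM from 58.0 bases. ARF6, a GTPase of membrane traffic, had 74.1 FPKM, TMEM11, a protein of mitochondrial shape, 32.9 FPKM, and EXOC8, a subunit of the exocyst, 2.42 FPKM.

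Transcription factors of the SD library included NFIL3, ONECUT1, ZHX1 and CHAMP1. NFIL3, a leucine-zipper repressor tied to the clock, had 82.7 FPKM and 1796 aligned bases on 1 exon. At an equal level LD would have held 1508 bases of it at a coverage of 1.10, under the 2.50 that APOA1 passed. NFIL3 was also listed in the libraries labelled SD liver (13.1 FPKM) and LD liver (3.93 FPKM). The clock list of 26 genes was otherwise represented by BHLHE40 alone, in LD. ONECUT1, a factor of liver and pancreas, had 10.9 FPKM. ZHX1 and CHAMP1 had 3.42 and 4.92 FPKM. The translation factor EIF5 had 37.6 FPKM over 11 exons.

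The membrane proteins of the SD library were GPR146, a receptor linked to cholesterol control, at 19.7 FPKM, GJB1, a gap-junction protein of hepatocytes and myelinating glia, at 14.8 FPKM, and FZD1, a Wnt receptor, at 8.15 FPKM. MESDC1 had 28.6 FPKM, and RNF139, a ubiquitin ligase of the endoplasmic reticulum, 8.11 FPKM. VCPIP1, a deubiquitinase, had 5.56 FPKM. TMSB4X, which binds actin monomers, had 21.1 FPKM from 44.0 aligned bases and is not secure.

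By count of genes, both hypothalamus lists overlapped the library labelled LD liver (183 genes with a symbol) more than that labelled SD liver (62). The library labelled LD liver had 8 of 53 neuron markers and 1 of 51 hepatocyte genes, so its tissue label is in question too. Of the 116 genes listed by symbol in LD hypothalamus alone, 67 (57.8%) also had a transcript in LD liver and 10 (8.62%) in SD liver, and 45 had one in neither. Of the 24 listed in SD hypothalamus alone, 13 (54.2%) had a transcript in LD liver and 11 (45.8%) in SD liver, and 8 in neither. By symbol, the hypothalamus libraries shared 10 genes, 29.4% of the SD list and 7.94% of the LD list. SD hypothalamus and SD liver shared 13, which is 38.2% and 21.0% of their lists. SD hypothalamus shared more genes with LD liver, at 22, or 64.7% and 12.0%. As a share of the liver list, its overlap was smaller there than in SD liver. LD hypothalamus and SD liver shared 14, or 11.1% and 22.6%, and LD hypothalamus and LD liver shared 74, or 58.7% and 40.4%. These shares move with the length of each list and carry no test. In every pair, genes can be missing for lack of depth.

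Pathways known for seasonal change in the hypothalamus could not be followed. None of 31 genes of the photoperiodic and reproductive axis was listed in either hypothalamus library, among them DIO2 and DIO3, which activate and inactivate thyroid hormone, TSHB and GNRH1. Pituitary and red blood cell lists were empty as well. Of the 25 lists of 613 genes, 22 had a member with a transcript in at least 1 of the hypothalamus libraries, with 23 genes in SD and 55 in LD. Lists were matched by symbol, and genes that the files give by identifier alone, 21 in SD and 49 in LD, could not be placed. At a depth of 13.3 to 15.8 megabases an unlisted gene may still be expressed in the tissue.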

How the data were processed

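RNA was sequenced by pyrosequencing from 1 library per group, per the labels. Per the file headers, the authors assembled each deposited file with StringTie 1.3.3b, guided by but not limited to the Ensembl 89 annotation of the collared flycatcher, build FicAlb_1.4. Neither labels nor headers name the aligner. Each deposited file gives coverage, FPKM and TPM for its transcripts as text. Reads were not analysed, so no counting interval is given.

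FPKM and aligned bases were summed per reference gene name with Python 3.11.15 and pandas 2.3.3, checked on simulated data. Log2 ratios used FPKM plus 1, and 2-fold was the threshold. No test was made. The strand of the libraries is not stated, so antisense overlaps cannot be told apart. Assembled transcripts were tied to a gene where they shared 1 exonic base or more, opposite strands excepted. Members, lists and function groups were chosen with earlier results of these data known. All genes with a symbol could be named: those in both libraries, list members, the highest by FPKM and those of like function. No genome or sequence table was used, so no sequence is shown. Some genes are not reported here by name.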

Additional observations from a re-analysis of the deposited data

Results flagged for a closer look

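SLC25A6, the ADP/ATP carrier, is 1 of 4 genes with a symbol in all 4 libraries, and its ratio of LD to SD had opposite signs under the tissue labels as deposited. The log2 ratio was 0.85 between the libraries labelled hypothalamus (32.5 and 59.5 FPKM) and -0.42 between those labelled liver (74.6 and 55.6 FPKM). The difference was not tested, with 1 library per group, and both ratios lie within 2-fold. The hypothalamus ratio was -0.10 with the median of the 10 shared genes set to 0, the sign of the liver ratio, and 1.13 in TPM.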

How the results depend on the processing

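Of the 10 genes listed in both libraries, CALM3, YWHAQ, DSTN and DYNLL2 stayed at least 2-fold higher in LD under all alternatives run, with CALM3 between 2.93 and 4.17 on the log2 scale. Their SD values rest on 592, 579, 460 and 209 aligned bases, and no alternative addressed sampling at that depth. The 5 higher genes became 4 with a pseudocount of 10 FPKM, with the median set to 0 or with the 10 highest transcripts left out, and 6 in TPM. The count of lower genes, 0, became 2 with the median set to 0 and 1 with overlapping assembled transcripts added (GAPDH, on transcripts of unlike length). With assembled transcripts added on aligned bases per aligned megabase it was 0. Counting unlisted genes at 0 FPKM gave 119 higher and 24 lower, by construction.

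The median log2 ratio of 0.96 was 0.66 with a pseudocount of 10 FPKM, 1.23 in TPM, 0.77 without the 10 highest transcripts and 0.85 with assembled transcripts added. Over all 22 reference genes listed in both, with or without a symbol, it was -0.0029. The 10, 116 and 24 genes listed in both, in LD alone and in SD alone became 22, 153 and 33 by reference identifier, and 1, 19 and 5 at a mean coverage of at least 1. With at least 150 aligned bases they were 10, 96 and 21. Leaving out the 10 highest transcripts and adding assembled transcripts were alternatives chosen after seeing the data. Of 110 single-gene ratios under alternatives, 104 kept their side of the 2-fold threshold. Many of these could not move. Taking the highest transcript, the same reference transcripts, at least 150 aligned bases or added assembled transcripts left all 10 ratios unchanged. Assembled transcripts added on aligned bases repeated the ratios of aligned bases alone. No paired analysis was possible because each group has 1 library. Depth limits these values, since most named genes have no exon above a coverage of 1. So do the single library per side, the tissue label of the SD library and the conflicting season record of the LD library. The tissue check is limited in turn by the library labelled LD liver, which had 8 of 53 neuron markers. Marker lists chosen with earlier results of these data known limit that check further.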
